A study of Arabidopsis thaliana with 12 samples.

Results

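The comparison described here sets shoots of the Arabidopsis thaliana accession C24 against shoots of the accession Col, with 3 RNA sequencing libraries of each. Both groups are inbred parents of one study, which also sequenced their hybrids in both directions of crossing, labelled Col/C24 and C24/Col, for 12 libraries in all. No group carries a mutation, transgene or treatment. All seedlings were 14 days old and had grown in short days, with 8 h of light at 22 °C and 16 h of darkness at 18 °C. RNA selected with oligo(dT) was sequenced, and each library gave 1 value per gene in RPKM, mapped reads scaled by gene length and by the library's total. Of 32992 genes with a value, the 17927 that reached at least 1 RPKM in 3 or more of the 12 libraries were tested. Nothing in the labels says whether replicates came from separate plants or pools, so the spread between libraries may be partly technical. The p-values of the reported fit rest on the spread left over all 12 libraries, hybrids included, after group and replicate number were fitted.

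Accessions of Arabidopsis are natural inbred lines that differ at many places in the genome, and Col is the line from which the reference genome was made. Differences in transcript level between accessions are known to arise from changes in a gene's own regulatory sequence, from missing or extra gene copies, and from changes in regulators that act on many genes. In leaves, iron and copper supply the photosynthetic apparatus, and plants adjust uptake, transport and storage genes to the supply of each metal. Branched hairs called trichomes and a waxy cuticle cover the leaf surface, and both are known to vary between accessions.

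C24 and Col shoots differed in the transcript level of a large share of genes, mostly by less than 2-fold. Under a model with the replicate number as a block, 7490 of 17927 genes (41.8%) passed an adjusted p of 0.05 in limma, with 3628 higher in C24 (20.2%) and 3862 lower (21.5%). These genes are called higher or lower below, and the shares are the background for every count of genes given here. The median absolute log2 fold change was 0.42 among called genes and 0.10 among the others. Only 575 genes were both called and at least 2-fold higher in C24 (3.21%), and 506 at least 2-fold lower (2.82%). At 8-fold or more the counts were 41 higher and 72 lower. All 3 pairs of libraries with the same number pointed in the direction of the call for 7372 of the 7490 genes. The calls rest on the same pairs, so this count describes the called genes and is no separate evidence for them. Without the block 4071 genes (22.7%) passed, 1852 higher (10.3%) and 2219 lower (12.4%), and all 4071 were also called with it in the same direction. All C24 libraries lay above all Col libraries for 2990 genes (16.7%) and below them for 3720 (20.8%). Since the reference genome is that of Col, a lower transcript level in C24 and C24 reads that did not align cannot be told apart in these files.

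**Figure D1:**
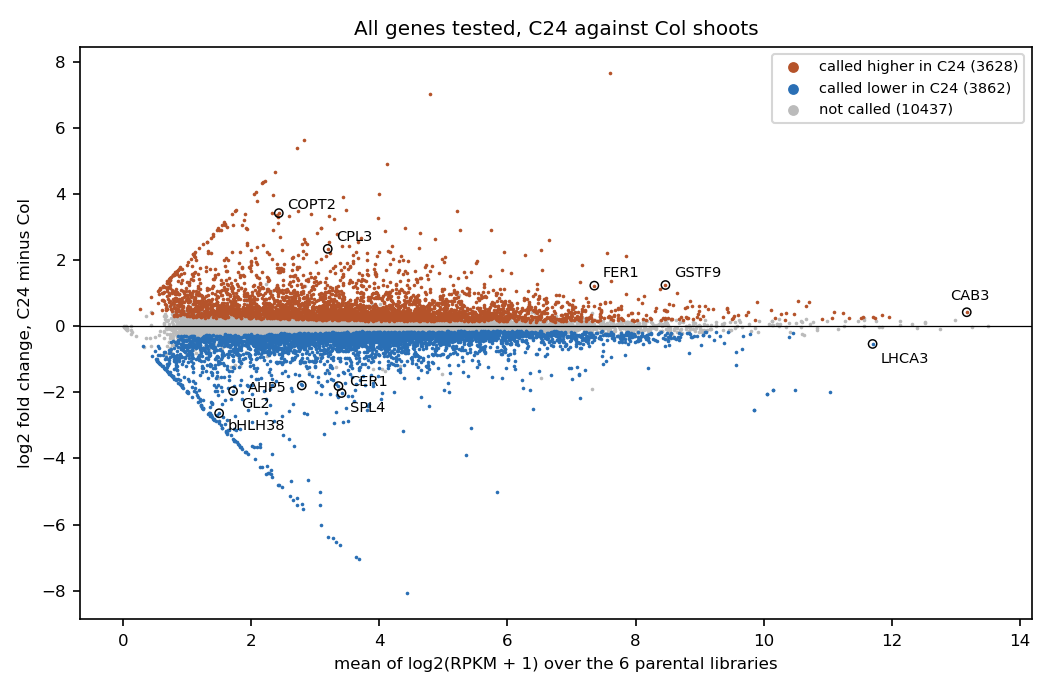
Each point is 1 of the 17927 genes tested, with the mean of log2(RPKM + 1) over the 6 parental libraries on the x axis and the fitted log2 fold change, C24 minus Col, on the y axis. Coloured points are the 3628 genes called higher and the 3862 called lower in C24, grey points did not pass, and named genes described in the text are circled. The straight lower and upper edges at the left are genes near 0 RPKM in one accession.

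Libraries were alike in the number of genes reached, with 17189 to 17243 genes at 1 RPKM or more in C24 and 17136 to 17353 in Col. Ribosomal RNA genes took 0.231% to 0.441% of the summed values in C24 and 0.576% to 2.69% in Col, and plastid genes 0.272% to 0.418% in C24 and 0.482% to 2.48% in Col, so both shares moved with the groups. With the ribosomal RNA share in the model beside the block, 6359 genes passed, 2667 higher and 3692 lower. Mesophyll markers matched the labelled shoot tissue, with 34760 to 39890 RPKM summed over the list of 6 in C24 and 28830 to 35020 in Col. One of them, CAB1, was listed at 0 in every library, while its close relatives CAB2 and CAB3 were among the most abundant transcripts. Of 11 root markers 6 stayed under 0.6 RPKM in all 6 libraries, as did 7 of 8 flower, 8 of 8 seed and 4 of 4 pollen markers. PYK10, a root and hypocotyl glucosidase, made up most of the summed root list, which ran from 126 to 135 RPKM in C24 and from 89.7 to 118 in Col.

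Among 26 lists of genes with a shared function, the share of called members ran from 22.2% in Polycomb and histone methylation to 70.6% in trichome patterning, against 41.8% of all genes. Trichome patterning genes (9 of 17 lower), phosphate starvation genes (7 of 16), organic acid genes (11 of 28), cytokinin genes (13 of 33), cuticle genes (12 of 32) and iron genes (8 of 22) had larger shares of lower calls than the 21.5% over all genes. Aquaporins (10 of 20 higher), glutathione transferases (13 of 28), cellulose and xylan genes (11 of 26), copper genes (8 of 19) and phenylpropanoid genes (11 of 27) had larger shares of higher calls than the 20.2% over all genes. The median log2 fold change was -0.02 over all genes tested, and over the lists it ran from -0.20 in phosphate starvation to 0.24 in cellulose and xylan synthesis. These counts describe lists that were chosen with earlier results of these data known, and the lists were not tested as sets.

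**Figure D2:**
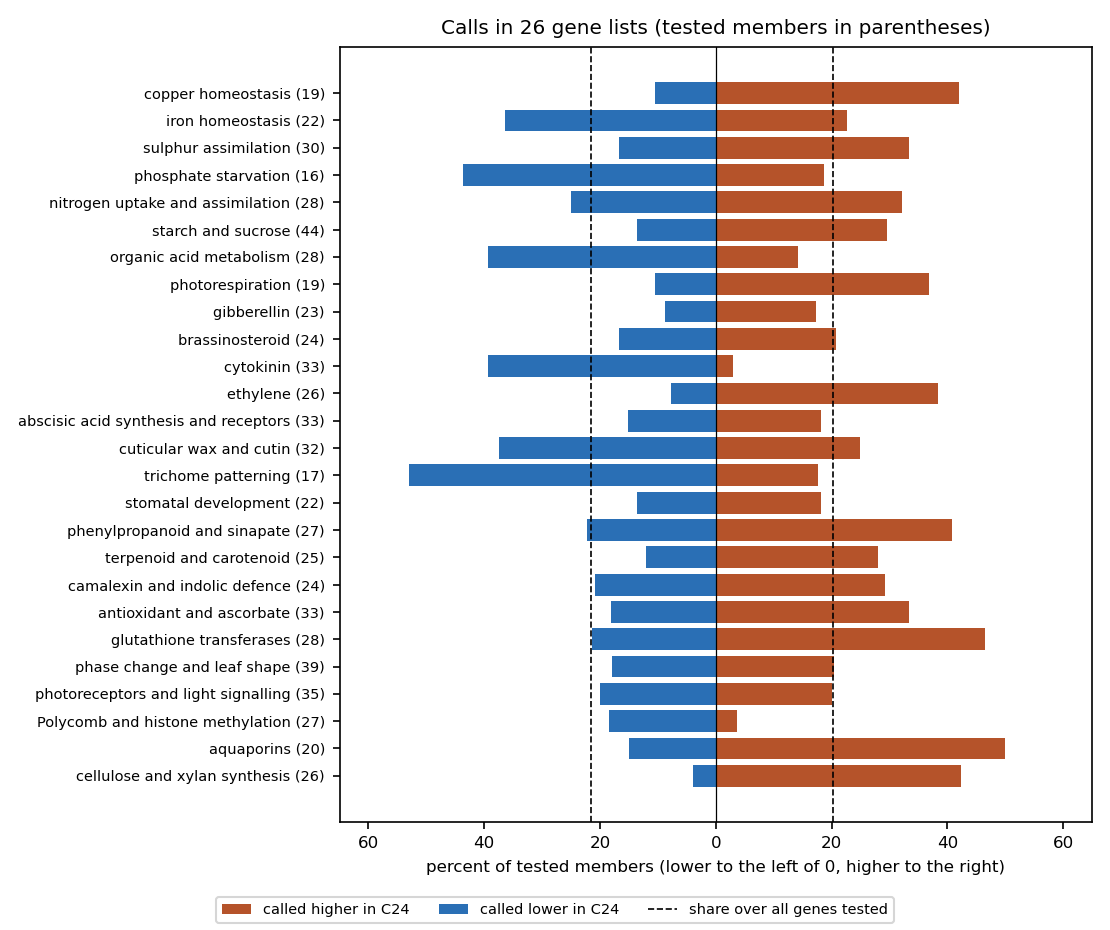
Bars give the percent of tested members called higher in C24 (right of 0) and lower in C24 (left of 0) for 26 gene lists, with the number of tested members in parentheses. Dashed lines mark the shares over all genes tested, 20.2% higher and 21.5% lower. The longest bar to the left is trichome patterning, with 9 of 17 members lower, and the longest to the right is aquaporins, with 10 of 20 higher.

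Of 22 tested iron genes 5 were higher in C24, 8 lower and 9 not called. The 4 bHLH regulators that plants switch on when iron is short were close to 0 in C24, while the ferritins FER1, FER3 and FER4, which store iron in plastids, were higher. BHLH101 had 0.00, 0.06 and 0.06 RPKM in C24 libraries, against 5.59, 4.93 and 10.5 in Col libraries. BHLH100 had 0.00, 0.06 and 0.32 RPKM in C24, against 6.91, 7.45 and 12.7 in Col. No C24 library came near any Col library in either gene, and Col replicate 3 was the highest in both. bHLH38 had 0.00, 0.00 and 0.45 RPKM in C24, against 5.29, 4.51 and 9.0 in Col. Its neighbour bHLH39 had 0.00, 0.05 and 0.27 RPKM in C24, against 2.47, 2.7 and 5.47 in Col. The fitted log2 fold changes of BHLH100, BHLH101, bHLH38 and bHLH39 were -3.12, -2.88, -2.63 and -1.99, with limma adjusted p of 3.4e-05, 3.11e-06, 2.19e-05 and 0.000193. On the log2(RPKM + 1) scale these values understate the difference of genes so close to 0.

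Other members of the iron deficiency response were lower as well. FRO3, a ferric reductase of mitochondria, had 6.84, 6.44 and 8.39 RPKM in C24, against 31.1, 19.7 and 29.1 in Col (log2 fold change -1.73, SE 0.10, limma adjusted p = 1.92e-07). OPT3, which loads iron into the phloem, averaged 16.2 ± 0.810 RPKM in C24 libraries and 35.6 ± 4.69 in Col libraries (SD over 3 libraries each; -1.08, adjusted p = 0.000309 in limma). BTS, a ubiquitin ligase that restrains the response, averaged 22.5 ± 1.27 RPKM in C24 libraries and 42.4 ± 9.85 in Col libraries (-0.86, adjusted p = 0.000581 in limma). The groups did not overlap in any of these genes. PYE, another regulator of the response, had 5.20, 4.57 and 4.97 RPKM in C24, against 7.56, 4.92 and 6.65 in Col, and did not pass (adjusted p = 0.187 in limma). The root uptake genes IRT1 and FRO2 stayed at or below 0.84 RPKM in all 6 libraries and were not tested.

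On the storage side the ferritin gene FER1 had 165, 295 and 318 RPKM in C24 libraries, against 83.7, 155 and 92.3 in Col libraries. C24 replicate 1 was the lowest of its group and still lay above the highest Col library (log2 fold change 1.23, SE 0.21, limma adjusted p = 0.000742). FER4 had 36.9, 47.2 and 61.8 RPKM in C24, against 20.3, 30.4 and 21.2 in Col, again without overlap (0.98, adjusted p = 0.000286 in limma). FER3 had 25.6, 40.9 and 46.3 RPKM in C24, against 18.3, 31.4 and 21.2 in Col, where the groups overlapped (0.64, adjusted p = 0.00419 in limma, and not called without the block). FRO6, a ferric reductase of the leaf cell membrane, had 78.8, 171 and 137 RPKM in C24, against 53.3, 72.7 and 70.7 in Col (0.91, adjusted p = 3.07e-05 in limma). NAS1, which makes a metal chelator, was higher by 0.36, and NRAMP3, a metal exporter of the vacuole, was lower by -0.36 (adjusted p = 0.0269 and 0.0187 in limma), and neither was called without the block. Over the whole list the median log2 fold change was 0.00, and without the block 3 genes were higher and 7 lower.

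The promoters of the 4 bHLH regulators and of BTS are shown because these regulators of the iron response were all lower in C24. Each line gives the 300 bases before the annotated gene start, 5′ to 3′ on the gene's strand, from RefSeq's TAIR10.1 assembly, which is Col sequence. Capitals mark the G-box CACGTG, a palindrome bound by many bHLH and bZIP proteins.
bHLH38: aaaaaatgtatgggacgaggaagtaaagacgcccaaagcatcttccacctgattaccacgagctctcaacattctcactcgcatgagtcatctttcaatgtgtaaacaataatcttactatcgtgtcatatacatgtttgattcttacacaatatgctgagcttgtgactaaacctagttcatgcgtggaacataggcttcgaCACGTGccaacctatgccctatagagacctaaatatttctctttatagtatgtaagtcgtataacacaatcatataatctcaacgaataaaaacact
bHLH39: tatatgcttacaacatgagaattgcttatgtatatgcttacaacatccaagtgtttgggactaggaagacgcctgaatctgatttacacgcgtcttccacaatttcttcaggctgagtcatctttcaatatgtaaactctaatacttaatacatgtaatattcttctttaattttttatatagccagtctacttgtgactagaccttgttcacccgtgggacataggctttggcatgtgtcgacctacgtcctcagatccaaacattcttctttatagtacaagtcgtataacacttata
BHLH100: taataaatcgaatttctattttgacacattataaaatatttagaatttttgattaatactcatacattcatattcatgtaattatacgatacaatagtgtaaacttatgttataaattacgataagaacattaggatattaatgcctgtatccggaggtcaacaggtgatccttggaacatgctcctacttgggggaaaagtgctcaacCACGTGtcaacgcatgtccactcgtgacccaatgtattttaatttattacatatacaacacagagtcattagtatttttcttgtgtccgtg
BHLH101: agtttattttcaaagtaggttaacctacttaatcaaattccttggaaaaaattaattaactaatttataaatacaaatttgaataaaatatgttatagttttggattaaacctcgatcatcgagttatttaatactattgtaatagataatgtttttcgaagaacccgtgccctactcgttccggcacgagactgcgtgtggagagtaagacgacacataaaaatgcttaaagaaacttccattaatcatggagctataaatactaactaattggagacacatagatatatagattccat
BTS: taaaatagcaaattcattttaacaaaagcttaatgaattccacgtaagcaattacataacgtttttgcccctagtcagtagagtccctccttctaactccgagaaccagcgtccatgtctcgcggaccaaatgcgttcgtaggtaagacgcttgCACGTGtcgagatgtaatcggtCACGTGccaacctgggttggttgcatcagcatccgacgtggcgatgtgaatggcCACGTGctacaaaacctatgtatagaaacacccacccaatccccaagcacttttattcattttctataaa

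These windows lie at chr3:21085246-21085545 for bHLH38, chr3:21087711-21088010 for bHLH39, chr2:17199455-17199754 for BHLH100 and chr5:1139634-1139933 for BHLH101, all on the minus strand, and at chr3:6273666-6273965 on the plus strand for BTS. A G-box began 97 bases before the start of bHLH38 and 91 before that of BHLH100, and BTS held 3, at 146, 124 and 70 bases. No CACGTG was found in the windows of bHLH39 and BHLH101. Of the 22 iron genes 8 (36.4%) held a G-box in this window, against 1445 of 17782 promoters of tested nuclear genes (8.13%). The 8 were 4 of the 8 genes lower in C24, 3 of the 5 higher and 1 of the 9 not called. Over all genes the share was 8.6% in promoters of higher genes and 7.81% in promoters of lower genes. Which bases C24 has at these sites was not analysed here, and a match of letters is a description of the window only.

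**Figure D3:**
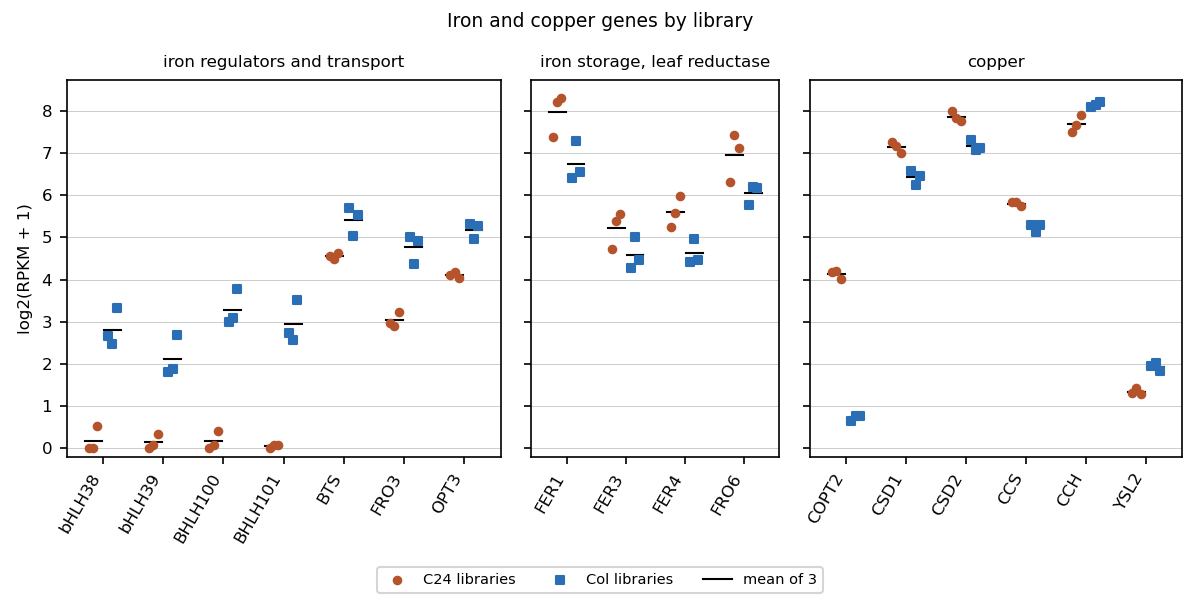
Points are log2(RPKM + 1) in each library for iron and copper genes, C24 (circles) left of Col (squares), and bars are means of 3. The 4 bHLH regulators lie at or near 0 in C24, the ferritins and FRO6 lie higher in C24, and COPT2 is the copper gene with the widest gap.

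Copper genes were more often higher in C24, with 8 of 19 tested members higher, 2 lower and a median difference (log2) of 0.12 (4 higher and 2 lower without the block). COPT2, a copper importer of the cell membrane, had 17.1, 17.5 and 15.3 RPKM in C24 libraries, against 0.55, 0.69 and 0.70 in Col libraries. This 25.7-fold gap in mean RPKM (log2 fold change 3.42, SE 0.11, limma adjusted p = 1.05e-09) left both groups narrow and far apart. COPT1, the related importer, had 62.7, 59.5 and 61.9 RPKM in C24, against 53.6, 53.1 and 62.1 in Col, and did not pass (adjusted p = 0.168 in limma). The copper/zinc superoxide dismutases were higher in C24, CSD1 at 141 ± 13.4 RPKM in C24 libraries and 85.3 ± 9.42 in Col libraries, and CSD2 at 233 ± 19.6 in C24 and 143 ± 12.9 in Col (SD, n = 3 each). CCS, the chaperone that gives them copper, moved with them (55.8, 55.9 and 52.5 RPKM in C24, against 38.2, 33.9 and 38.3 in Col; 0.56, adjusted p = 6.62e-05 in limma). FSD1, the iron superoxide dismutase, had 452, 590 and 709 RPKM in C24, against 401, 493 and 432 in Col, so the groups overlapped (0.38, adjusted p = 0.00525 in limma, lost without the block). CCH, another copper chaperone, was lower in C24 (181, 202 and 239 RPKM, against 272, 281 and 296 in Col), as was YSL2, a carrier of metal chelates (1.47, 1.68 and 1.45 RPKM in C24, against 2.87, 3.06 and 2.54 in Col). SPL7, the regulator that senses copper shortage, had 7.33, 8.38 and 8.03 RPKM in C24, against 7.29, 7.37 and 7.25 in Col (adjusted p = 0.257 in limma). GTAC, the core letters of its binding site, occurred in 36.8% of the copper gene windows and 40.1% of all.

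Trichome patterning genes gave the highest share of calls among the lists, with 9 of 17 lower, 3 higher and 5 not called (8 lower and 3 higher without the block). The lower genes were MYB23, GL2, TTG2, TTG1, CPC, ETC1, ETC2, SIM and GL1, which is listed as MYB0, and the higher ones CPL3, ATMYC1 and STI. MYB23 had 0.06, 0.05 and 0.09 RPKM in C24 libraries, against 3.53, 4.46 and 3.88 in Col libraries (log2 fold change -2.21, SE 0.15, limma adjusted p = 6.89e-07). GL2, the homeodomain gene that directs hair differentiation, had 0.64, 0.85 and 0.51 RPKM in C24, against 5.48, 5.19 and 5.76 in Col (-1.96, adjusted p = 3.25e-08 in limma). Both genes were tight within each group, with no overlap. TTG2, a WRKY factor of trichomes, and MYB0 followed at -0.98 and -0.74, with adjusted p of 0.000104 and 0.00126 in limma. EGL3, a bHLH activator, had 1.75, 2.41 and 1.74 RPKM in C24, against 1.13, 1.94 and 1.82 in Col, and did not pass, and its relative GL3 stayed at or below 0.10 RPKM. CPL3 (AT4G01060, also called ETC3), one of the small MYB proteins that inhibit trichome formation, went the other way, at 18.3, 17.1 and 23.9 RPKM in C24, against 2.27, 2.56 and 4.77 in Col (2.34, SE 0.13, adjusted p = 1.4e-07 in limma). Its relatives CPC, ETC1 and ETC2 were lower in C24, by -0.50, -0.78 and -0.90 on the log2 scale (adjusted p = 0.00543, 0.00925 and 0.000635 in limma). In RNA of whole shoots, fewer cells of a type and less RNA per cell cannot be told apart. The epidermis markers ATML1 (43.2 ± 3.44 RPKM in C24 libraries and 41.6 ± 3.03 in Col libraries) and PDF1 (284 ± 8.39 RPKM in C24 libraries and 280 ± 48.1 in Col libraries) did not pass, and neither did PDF2. KCS10 and ABCG12, the other epidermis markers, were lower by -0.21 and -0.19 (adjusted p = 0.0249 and 0.0373 in limma; neither was called without the block), the median of the 5 was -0.12, and the summed epidermis list ran from 502 to 529.7 RPKM in C24 and from 488 to 628 in Col. The part of cell numbers in the trichome result was not tested.

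**Figure D4:**
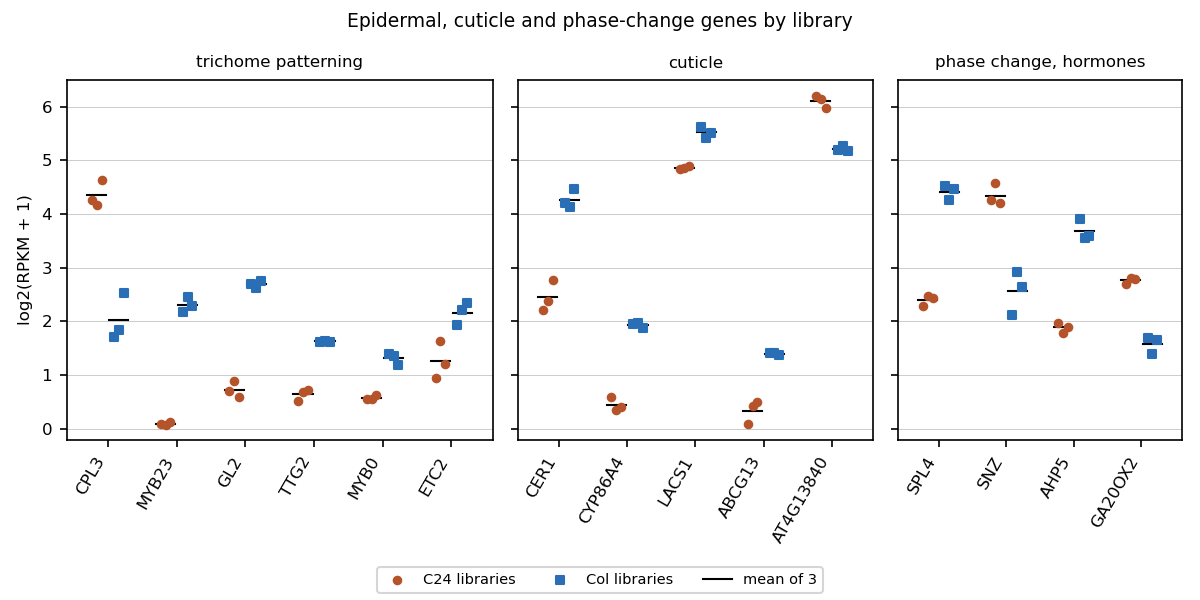
Points are log2(RPKM + 1) in each library, C24 (circles) left of Col (squares), with bars at the mean of 3, for trichome, cuticle and phase-change genes. CPL3, AT4G13840, SNZ and GA20OX2 lie higher in C24, and the other genes shown lie lower.

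Cuticle genes differed in both directions, with 8 of 32 higher and 12 lower (3 and 9 without the block). CER1, which makes the alkanes that dominate leaf wax, had 3.62, 4.23 and 5.80 RPKM in C24 libraries, against 17.5, 16.5 and 21.1 in Col libraries. The highest C24 library lay far below the lowest Col library, and the log2 fold change was -1.81 (SE 0.13, limma adjusted p = 1.41e-06). CYP86A4, a cutin hydroxylase, had 0.50, 0.28 and 0.32 RPKM in C24, against 2.85, 2.92 and 2.69 in Col (-1.49, adjusted p = 1.02e-06 in limma). Lower values were also found for the transporter ABCG13 (-1.06), the activator SHN2 (-1.01), the elongase KCS5 (-0.89), the acyl-CoA synthetase LACS1 (-0.66) and the acyltransferase GPAT8 (-0.59), with adjusted p between 7.61e-06 and 0.000185 in limma. AT4G13840, also called CER26, which lengthens wax precursors, was higher in C24 at 72.0, 69.8 and 61.8 RPKM, against 35.5, 37.7 and 35.0 in Col (0.89, adjusted p = 2.06e-06 in limma). MYB16, a regulator of cuticle formation, was higher too (31.2 ± 4.22 RPKM in C24 libraries and 20.5 ± 1.72 in Col libraries). The count of higher cuticle genes was 5 when Col replicate 2 was left out. It was 4 when the 4 libraries of replicate 1 were left out and 5 without those of replicate 2.

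Genes that time the change from juvenile to adult growth differed singly. SPL4, a promoter of that change, had 3.88, 4.52 and 4.41 RPKM in C24 libraries, against 22.1, 18.2 and 21.1 in Col libraries (log2 fold change -2.02, SE 0.09, limma adjusted p = 1.17e-08). SNZ, an AP2-type repressor of flowering, had 18.1, 22.8 and 17.4 RPKM in C24, against 3.35, 6.61 and 5.24 in Col (1.78, SE 0.11, adjusted p = 4.08e-07 in limma). Each gene separated the accessions without overlap, SPL4 low and SNZ high in C24. AN3, which promotes cell number in leaves, was lower in C24 (6.83 ± 1.45 RPKM in C24 libraries and 12.2 ± 1.83 in Col libraries), and so was BB, a ubiquitin ligase that limits organ size (5.51 ± 0.753 RPKM in C24 libraries and 7.94 ± 0.635 in Col libraries). Of 39 tested phase-change and leaf-shape genes 8 were higher and 7 lower (1 and 3 without the block). Without C24 replicate 3 the counts were 5 and 4, and without Col replicate 3 the lower count was 3.

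Cytokinin genes leaned to lower values, with 1 of 33 higher and 13 lower (1 and 4 without the block). AHP5, which passes the signal from receptor to nucleus, had 2.93, 2.46 and 2.74 RPKM in C24 libraries, against 14.0, 10.7 and 11.1 in Col libraries (log2 fold change -1.79, SE 0.10, limma adjusted p = 1.64e-07). CKX6, a cytokinin oxidase, IPT3, which makes the hormone, and LOG8, which activates it, were lower by -0.84, -0.72 and -0.44 (adjusted p = 0.00114, 0.00478 and 0.000718 in limma). The response regulators ARR7 and ARR6 varied most among the Col libraries. ARR7 had 14.8, 11.6 and 8.66 RPKM in C24, against 92.2, 38.4 and 7.04 in Col, so that only Col replicates 1 and 2 were high (-1.31, adjusted p = 0.0217 in limma). ARR6 showed the same spread, at 5.07, 3.54 and 4.25 RPKM in C24, against 30.1, 13.3 and 2.87 in Col (-1.19, adjusted p = 0.0323 in limma). Both calls were lost when C24 replicate 1, C24 replicate 2, Col replicate 1 or Col replicate 2 was left out, with adjusted p between 0.0613 and 0.155 in limma. The count of lower genes was 7 without C24 replicate 1 and 8 without Col replicate 1, and that of higher genes 2 without C24 replicate 2, Col replicate 1 or Col replicate 3.

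Ethylene genes leaned the other way, with 10 of 26 higher and 2 lower (4 and 0 without the block). The lower count was 0 without C24 replicate 3 or Col replicate 3 and 1 without Col replicate 1. ACS6, which makes the ethylene precursor, had 74.0, 27.5 and 34.8 RPKM in C24 libraries, against 10.8, 5.32 and 5.82 in Col libraries (log2 fold change 2.41, SE 0.25, limma adjusted p = 2.25e-05). ERF2, an ethylene-responsive factor, had 47.7, 16.0 and 23.5 RPKM in C24, against 8.4, 5.8 and 7.84 in Col (1.72, adjusted p = 3.64e-05 in limma). Replicate 1 was the highest of its group in both accessions for these genes and for ERF5 (19.2, 4.86 and 6.76 RPKM in C24, against 3.35, 1.36 and 1.68 in Col), yet each C24 library lay above every Col library. In other hormone pathways single enzymes stood out. GA20OX2, of gibberellin synthesis, had 5.45, 5.97 and 5.95 RPKM in C24, against 2.23, 1.63 and 2.15 in Col (1.18, adjusted p = 1.08e-05 in limma), among 4 higher and 2 lower of 23 gibberellin genes (1 and 0 without the block, and 1 lower without C24 replicate 1 or Col replicate 3). In the brassinosteroid list, where 5 of 24 were higher and 4 lower (1 and 4 without the block), DWF4 of hormone synthesis, BAS1 of hormone inactivation and the growth repressor IBH1 were lower (-0.61, -0.87 and -0.92), and the growth factor BEE1 was higher (0.80). Of 33 abscisic acid genes 6 were higher and 5 lower (1 and 2 without the block), with the catabolic enzyme CYP707A3 at 29.5, 5.41 and 8.08 RPKM in C24, against 4.20, 1.26 and 1.99 in Col (1.89, adjusted p = 0.000171 in limma, not called without the block), and the synthesis gene ABA2 lower (11 ± 1.57 RPKM in C24 libraries and 18.4 ± 2.94 in Col libraries). Without Col replicate 1 the lower count in that list was 3.

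Sulphate handling differed at several steps, with 10 of 30 tested sulphur genes higher and 5 lower (5 and 3 without the block). SULTR2;1, a sulphate transporter of the vasculature, had 143, 158 and 145 RPKM in C24 libraries, against 80.8, 70.9 and 79.0 in Col libraries (log2 fold change 0.94, SE 0.06, limma adjusted p = 6.98e-07). Its relative SULTR2;2, listed as AST56, was lower in C24 at 1.32, 1.35 and 1.17 RPKM, against 4.63, 4.63 and 3.79 in Col (-1.23, adjusted p = 2.08e-06 in limma). AKN2, which makes the active sulphate used in glucosinolate synthesis, averaged 35.3 ± 8.23 RPKM in C24 libraries and 12.5 ± 1.91 in Col libraries (SD, n = 3 each), and sulphite reductase SIR 172 ± 19.0 in C24 and 119 ± 12.6 in Col. Both enzymes and SULTR2;1 stood above Col in every library. APR2, the reductase before SIR, had 98.7, 30.5 and 33.2 RPKM in C24, against 23.1, 20.2 and 18.8 in Col, led by C24 replicate 1 (1.14, adjusted p = 0.00186 in limma, not called without the block).

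Phosphate starvation genes were lower in 7 of 16 cases and higher in 3 (3 and 2 without the block). PHO1, which exports phosphate towards the xylem, was higher in C24 at 12.5, 15.4 and 14.4 RPKM, against 5.83, 5.26 and 5.87 in Col (log2 fold change 1.18, SE 0.09, limma adjusted p = 1.36e-06). PAP17, a phosphatase induced by phosphate shortage, had 0.79, 2.02 and 2.21 RPKM in C24, against 2.88, 3.74 and 4.49 in Col (-0.85, adjusted p = 0.000239 in limma). MGD2, of galactolipid synthesis, moved the same way as PAP17 (1.87 ± 0.437 RPKM in C24 libraries and 4.05 ± 0.136 in Col libraries), and PHR1, the central regulator, was slightly lower (33.2 ± 3.15 RPKM in C24 libraries and 40.8 ± 2.85 in Col libraries; -0.29, adjusted p = 0.000771 in limma). Nitrogen genes divided into 9 higher and 7 lower of 28 (3 and 3 without the block). The cytosolic glutamine synthetase listed as GSR 1 had 29.7, 30.7 and 29.8 RPKM in C24, against 15.2, 16.2 and 11.7 in Col (1.03, adjusted p = 2.5e-06 in limma). NIA1, a nitrate reductase, had 6.88, 19.3 and 13.4 RPKM in C24, against 12.3, 29.1 and 24.5 in Col, where the groups overlapped and only the pairing separated them (-0.72, adjusted p = 0.00692 in limma).

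In carbon metabolism, organic acid genes leaned to lower values in C24, with 4 of 28 higher and 11 lower (1 and 8 without the block). The higher count was 1 or 2 when any one of the libraries other than Col replicate 3 was left out. FUM2, the cytosolic fumarase that lets leaves store fumarate, had 17.8, 15.2 and 12.4 RPKM in C24 libraries, against 33.1, 35.6 and 26.5 in Col libraries (log2 fold change -1.02, SE 0.07, limma adjusted p = 1.28e-06). FUM1, the mitochondrial enzyme, had 44.3, 50.01 and 52.5 RPKM in C24, against 54.4, 49.95 and 57.0 in Col, and did not pass (adjusted p = 0.117 in limma). ALMT12, a guard cell anion channel, was lower by -0.72, PCK1 by -0.56, and the aconitase ACO1 by -0.34 (adjusted p between 2.95e-05 and 0.00175 in limma). NADP-ME2, a malic enzyme, was higher (99.2 ± 5.03 RPKM in C24 libraries and 70.1 ± 8.03 in Col libraries). Of 44 starch and sucrose genes 13 were higher and 6 lower (5 and 3 without the block). SUS1, a sucrose synthase, had 11.4, 11.5 and 7.93 RPKM in C24, against 5.65, 5.89 and 4.45 in Col, and APL3, a subunit of starch synthesis, 3.73, 3.75 and 3.92 in C24, against 8.87, 9.67 and 8.02 in Col. The higher count fell to 8 without C24 replicate 2. It was 6 when the 4 libraries of replicate 2 were left out and 7 without those of replicate 3. In photorespiration 7 of 19 genes were higher and 2 lower (4 and 0 without the block), led by the catalase CAT2 (634 ± 69.0 RPKM in C24 libraries and 410 ± 10.2 in Col libraries) and glycolate oxidase GOX2 (528 ± 16.7 RPKM in C24 libraries and 359 ± 12.1 in Col libraries). The higher count was 4 when C24 replicate 1 or 3, or Col replicate 1 or 2, was left out, and the lower count was 0 or 1 without any one library other than Col replicate 1. Of 5 guard cell markers HT1 and MYB60 were lower too, by -0.61 and -0.32, and the part of guard cell numbers in the ALMT12 result was not tested.

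Glutathione transferases, which attach glutathione to toxic or signalling molecules, were higher in 13 of 28 cases and lower in 6 (9 and 2 without the block). GSTU26 had 42.9, 31.2 and 23.8 RPKM in C24 libraries, against 5.81, 6.83 and 6.88 in Col libraries (log2 fold change 2.13, SE 0.14, limma adjusted p = 6.2e-07). GSTF11 and GSTU27 were higher by 1.7 and 1.60 (adjusted p = 3.01e-05 and 2.1e-06 in limma). The abundant GSTF9 and GSTU20 averaged 548 ± 76.8 and 494 ± 51.6 RPKM in C24, against 230 ± 30.9 and 226 ± 21.8 in Col. GSTU24 went the other way at 4.46, 3.71 and 1.02 RPKM in C24, against 25.5, 8.89 and 6.33 in Col, with the highest value in Col replicate 1 (-1.74, adjusted p = 0.00259 in limma). The list's higher count was 6 when the 4 libraries of replicate 2 were left out. Reads shared among close members of this family could move counts between them, which was not tested.

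Among antioxidant genes 11 of 33 were higher and 6 lower (7 and 3 without the block). GPX7, a peroxidase of plastids, had 9.49, 9.94 and 8.65 RPKM in C24 libraries, against 2.47, 2.14 and 1.71 in Col libraries (log2 fold change 1.74, SE 0.08, limma adjusted p = 2.6e-08). MIOX1, which oxidises inositol, had 0.19, 0.03 and 0.06 RPKM in C24, against 8.43, 3.16 and 4.51 in Col (-2.46, adjusted p = 6.2e-07 in limma). The lower count was 3 without C24 replicate 2 or Col replicate 1. The higher count was 7 when the 4 libraries of replicate 2 were left out. Of 24 camalexin and indolic defence genes 7 were higher and 5 lower (2 and 4 without the block), and the lower count was 3 without Col replicate 3. IGMT2, which methylates indole glucosinolates, had 20.2, 11.9 and 8.67 RPKM in C24, against 1.47, 0.70 and 0.49 in Col, the order of the libraries being the same in both groups (2.91, SE 0.10, adjusted p = 2.8e-09 in limma). NIT2, a nitrilase, had 1.96, 2.68 and 16.7 RPKM in C24, against 32.0, 29.3 and 36.5 in Col (-2.54, adjusted p = 0.000501 in limma), and without C24 replicate 3 the log2 fold change was -3.23. The neighbouring relatives NIT1 and NIT3 were lower by -0.29 and -0.61, and reads shared among the 3 genes were not tested.

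Aquaporins, the water channels of cell and vacuole membranes, were higher in 10 of 20 cases and lower in 3 (7 and 1 without the block). The vacuolar channel listed as TIP2 (AT3G26520) had 2178, 1770 and 2085 RPKM in C24 libraries, against 1258, 1144 and 1577 in Col libraries (log2 fold change 0.61, SE 0.08, limma adjusted p = 0.000104). PIP2A of the cell membrane had 543, 540 and 543 RPKM in C24, against 331, 344 and 426 in Col (0.57, adjusted p = 0.000122 in limma). Both were higher in every C24 library, while TIP2;2 was lower at 29.4, 22.5 and 19.5 RPKM in C24, against 63.9, 61.5 and 62.5 in Col (-1.38, SE 0.09, adjusted p = 5.61e-07 in limma). NIP6;1, a boron channel of young leaves, was higher (11 ± 1.90 RPKM in C24 libraries and 5.99 ± 0.549 in Col libraries).

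Cell wall genes showed mostly small shifts, and most calls needed the block. Of 26 cellulose and xylan genes 11 were higher and 1 lower with the block, against 1 and 1 without it. CESA6, a subunit of primary wall cellulose synthase, had 175, 105 and 132 RPKM in C24 libraries, against 102, 68.0 and 85.3 in Col libraries, so that the groups nearly touched while each pair was higher (log2 fold change 0.67, limma adjusted p = 1.35e-06). CSI1, which links that enzyme to microtubules, was higher by 0.53 (adjusted p = 1.57e-05 in limma), and the other primary wall subunits CESA1, CESA2 and CESA3, listed as CEV1, by 0.24, 0.40 and 0.24. Only FRA8, of xylan synthesis, was lower, at 0.86, 0.79 and 0.91 RPKM in C24, against 2.01, 1.72 and 2.13 in Col.

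In phenylpropanoid metabolism 11 of 27 genes were higher and 6 lower (5 and 1 without the block). PAL3, a phenylalanine ammonia-lyase, had 16.4, 16.9 and 18.1 RPKM in C24 libraries, against 6.15, 6.24 and 8.69 in Col libraries (log2 fold change 1.19, SE 0.07, limma adjusted p = 3.86e-07), while PAL1 was lower at 13.4, 12.3 and 11.8 RPKM in C24, against 18.7, 19.3 and 14.8 in Col. Without Col replicate 2 or 3 the higher count was 7, and without C24 replicate 2 or Col replicate 3 the lower count was 3. With the 4 libraries of replicate 2 left out the lower count was 2. Terpenoid genes gave 7 higher and 3 lower of 25 (2 and 0 without the block), with squalene synthase SQS1 higher by 0.52. Stomatal genes gave 4 higher and 3 lower of 22 (2 and 0 without the block). The stomatal counts were 2 higher without C24 replicate 1 and 1 lower without Col replicate 3. With the 4 libraries of replicate 3 left out they were 2 higher and 0 lower, and without those of replicate 2 the higher count was 1. SPCH, which starts the stomatal lineage, had 5.05, 5.62 and 5.04 RPKM in C24, against 5.27, 5.40 and 5.02 in Col (adjusted p = 0.997 in limma). Light signalling genes were balanced, with 7 higher and 7 lower of 35 (4 and 5 without the block). HFR1, a factor that restrains shade growth, had 22.4, 15.2 and 22.0 RPKM in C24, against 8.04, 7.09 and 10.3 in Col (1.13, adjusted p = 1.57e-05 in limma). The photoreceptor genes PHYA, PHYC and PHYE were lower by -0.30, -0.38 and -0.59, and PHOT2 was higher by 0.28. Polycomb and histone methylation genes had few calls, 1 higher and 5 lower of 27, with and without the block. The higher one was the histone methyltransferase SWN (22.3 ± 1.28 RPKM in C24 libraries and 15.8 ± 0.811 in Col libraries), and 3 were higher without C24 replicate 1 or Col replicate 1.

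The largest rises in C24 among genes with a symbol took in glucosinolate, flowering and stress genes. Mobile elements were found both among these rises and among the largest falls. ESP, which steers glucosinolate breakdown, had 2587, 2776 and 2911 RPKM in C24 libraries, against 11.5, 12.96 and 13.6 in Col libraries, and was also the gene that gained most RPKM. AOP2, annotated as a transcribed pseudogene in the Col reference, had 353, 337 and 262 RPKM in C24, against 0.72, 1.71 and 2.0 in Col. The flowering repressor FLC had 88.2, 90.4 and 105 RPKM in C24, against 1.87, 2.3 and 2.34 in Col. After these came SADHU3-2 and SADHU10-1, retroelement copies with 17.7 to 19.5 RPKM in C24 libraries and 0.25 to 0.94 in Col libraries, the MADS-box gene AGL38 (10.7, 15.5 and 19.3 RPKM in C24, against 0.10, 0.26 and 0.05 in Col), and HPL1, a hydroperoxide lyase (12.1, 20.4 and 15.9 RPKM in C24, against 0.70, 0.70 and 0.71 in Col). RHL41, a zinc finger factor of abiotic stress, had 93.8, 19.1 and 26.8 RPKM in C24, against 8.51, 1.39 and 0.54 in Col, and replicate 1 was the highest of its group in both accessions. PCC1, a pathogen-responsive gene, ranged from 12.4 to 44.9 RPKM in C24 and from 0.57 to 2.96 in Col, with a log2 fold change of 3.38 that became 4.14 without C24 replicate 2.

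Among the largest falls were genes listed at or close to 0 in every C24 library. ECS1, a cell wall protein gene, had 0.15, 0.07 and 0.13 RPKM in C24 libraries, against 140, 147 and 149 in Col libraries. The retroelement copy SADHU1-1 had 0.00, 0.00 and 0.18 RPKM in C24, against 64.1, 65.45 and 73.2 in Col (log2 fold change -6.02). Another copy, Sadhu4-2, had 0.35, 0.26 and 0.34 RPKM in C24, against 19.3, 17.7 and 17.6 in Col (-3.87). The arginase ARGAH2 had 0.00, 0.00 and 0.04 RPKM in C24, against 43.5, 38.0 and 32.2 in Col, and HR4, a relative of powdery mildew resistance genes, 1.04, 0.22 and 0.27 in C24, against 64.5, 26.02 and 27.9 in Col. A stretch of chromosome 1 held several of these genes. LpxC2, at chr1:8775901-8778072, had 0.00, 0.03 and 0.00 RPKM in C24, against 82.1, 75.5 and 90.7 in Col, and LpxC3 nearby had 0.15, 0.16 and 0.26 in C24, against 13.6, 13.1 and 15.7 in Col. Beyond LpxC3 lies the noncoding gene AT1G25098, with 0.07, 0.31 and 0.62 RPKM in C24, against 327, 358 and 377 in Col. LpxC3 is identical to AT1G25145 over 1870 and to AT1G25210 over 1873 of its 1873 bases in TAIR10.1, so reads cannot be assigned to one of them. The same holds for the 2 genes named AT14A, AT3G28290 and AT3G28300, which are identical over 1961 bases and stood at 0.10 to 0.32 RPKM in C24 and 9.54 to 19.8 in Col.

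Several of the largest gaps in RPKM were in photosynthesis genes with small folds. CAB3, a chlorophyll-binding protein of photosystem II, had 10521, 11361 and 10244 RPKM in C24 libraries, against 6987, 8449 and 8637 in Col libraries (log2 fold change 0.42, limma adjusted p = 0.00496), a call lost when the 4 libraries of replicate 1 were left out (0.34, adjusted p = 0.182 in limma). Reads shared between CAB3 and its close relatives CAB1 and CAB2 were not tested. PSAF, a photosystem I subunit, and ferredoxin, listed as FED A, were higher by 0.34 and 0.75, and the myrosinase TGG1 by 0.73 (adjusted p = 0.00262, 3.68e-05 and 1.59e-05 in limma). LHB1B1 of the light-harvesting antenna and RBCS2B, a Rubisco subunit, were higher by 0.27 and 0.43 with the block and were not called without it. Leaving out C24 replicate 2 or Col replicate 2 also ended both calls (adjusted p from 0.0539 to 0.111 in limma), and that of LHB1B1 was further lost without C24 replicate 1 or Col replicate 1 (adjusted p = 0.132 and 0.1002 in limma). LHCA3, an antenna protein of photosystem I, was lower at 2596, 2892 and 2821 RPKM in C24, against 3615, 4035 and 4448 in Col (-0.54, adjusted p = 0.000375 in limma). GAPA, of the Calvin cycle, was lower by -0.32, the growth-related gene TCTP by -0.77 and the glycine-rich protein gene GRP3S by -1.18. AT3G62530, an ARM repeat protein gene, had 8.25, 11.4 and 7.71 RPKM in C24, against 334, 316 and 325 in Col (-5.03, SE 0.11, adjusted p = 3.12e-11 in limma). In AT2G33830, of a dormancy and auxin associated family, and AT3G05727 the falls were -0.69 and -1.25.

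Called genes also lay side by side. Runs of tested genes consecutive by identifier and called in the same direction reached 12 genes, and 5 runs had 7 or more. The longest, at chr5:20569533-20621103 from AT5G50520 to AT5G50680, held 12 genes lower in C24, with log2 fold changes from -3.82 to -0.50. In the Col reference these are 2 sets of the same 6 genes, and each gene was identical to its copy over 2066 to 3375 aligned bases. Reads from these stretches cannot be assigned to 1 copy, so the calls of a gene and its copy are not independent. The set includes SPL13A (4.66, 3.0 and 3.78 RPKM in C24, against 9.41, 5.56 and 7.22 in Col) and SPL13B (6.03, 3.59 and 4.42 RPKM in C24, against 11.5, 6.23 and 7.23 in Col), SPL factors of phase change. Mean RPKM in C24 was 0.290 to 0.661 of that in Col for 10 of the 12 genes, and the copies AT5G50565 and AT5G50665 were listed at 0 in every C24 library and at 10.5 to 14.1 RPKM in Col. The number of copies in C24 was not analysed here.

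A second run of 10 lower genes, at chr1:21742944-21843819, held resistance genes of the NB-LRR class and copies of a ribosomal protein S5 gene. AT1G58602, an NB-LRR gene, had 2.06, 3.04 and 2.63 RPKM in C24 libraries, against 31.0, 22.2 and 25.6 in Col libraries (log2 fold change -2.93, SE 0.13, limma adjusted p = 1.72e-08). AT1G58684, of the S5 family, had 14.9, 16.2 and 17.2 RPKM in C24, against 62.8, 72.1 and 66.2 in Col, and is identical over 1565 bases or more to AT1G58983 and AT1G59359. AT1G58561 lies within the span of AT1G58602 in the annotation, so some reads may be shared, which was not tested. AT1G58807 and AT1G59124 are identical over 4506 bases, and AT1G58848 and AT1G59218 are 99.98% identical over 5073. Reads can hardly be assigned among these copies or among those of the S5 gene, so their calls are not independent. The 5 genes after the run did not pass, and of the 5 before it 1 was higher. Another run of lower genes, at chr4:11844506-11860426 from AT4G22485 to AT4G22530, held several lipid-transfer protein genes, of which AT4G22517 had 69.3, 74.1 and 75.8 RPKM in C24, against 251, 215 and 207 in Col. AT4G22513 and AT4G22517 are 90.153% identical over 589 bases, so some reads may be shared.

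The other 2 runs were of 7 higher genes each on chromosome 1. In the run at chr1:24602033-24648839 the thionin gene AT1G66100, of a family of small antimicrobial proteins, had 248, 265 and 228 RPKM in C24 libraries, against 36.3, 37.9 and 46.4 in Col libraries (log2 fold change 2.60, SE 0.11, limma adjusted p = 1.14e-08). Its neighbour AT1G66090, a TIR-NBS resistance gene, had 41.4, 5.08 and 5.65 RPKM in C24, against 15.3, 1.72 and 1.20 in Col, and CMPG1, a ubiquitin ligase, 30.6, 2.66 and 7.49 in C24, against 8.91, 1.92 and 4.40 in Col. In both genes replicate 1 was high in each group, the groups overlapped, and the call was absent without the block. The run at chr1:11142461-11185396, from IMD3 to AGO2, held small differences, from 0.20 to 0.82 on the log2 scale. PP2-A9, a phloem lectin gene, had the largest, with 3.36, 3.81 and 2.96 RPKM in C24, against 0.88, 1.96 and 1.72 in Col. AGO2, the last of the run, was higher by 0.30 and was not called when C24 replicate 1 or 3, or Col replicate 1 or 2, was left out (adjusted p from 0.0603 to 0.078 in limma). Runs of this length were not tested against what the share of called genes alone would give.

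**Figure D5:**
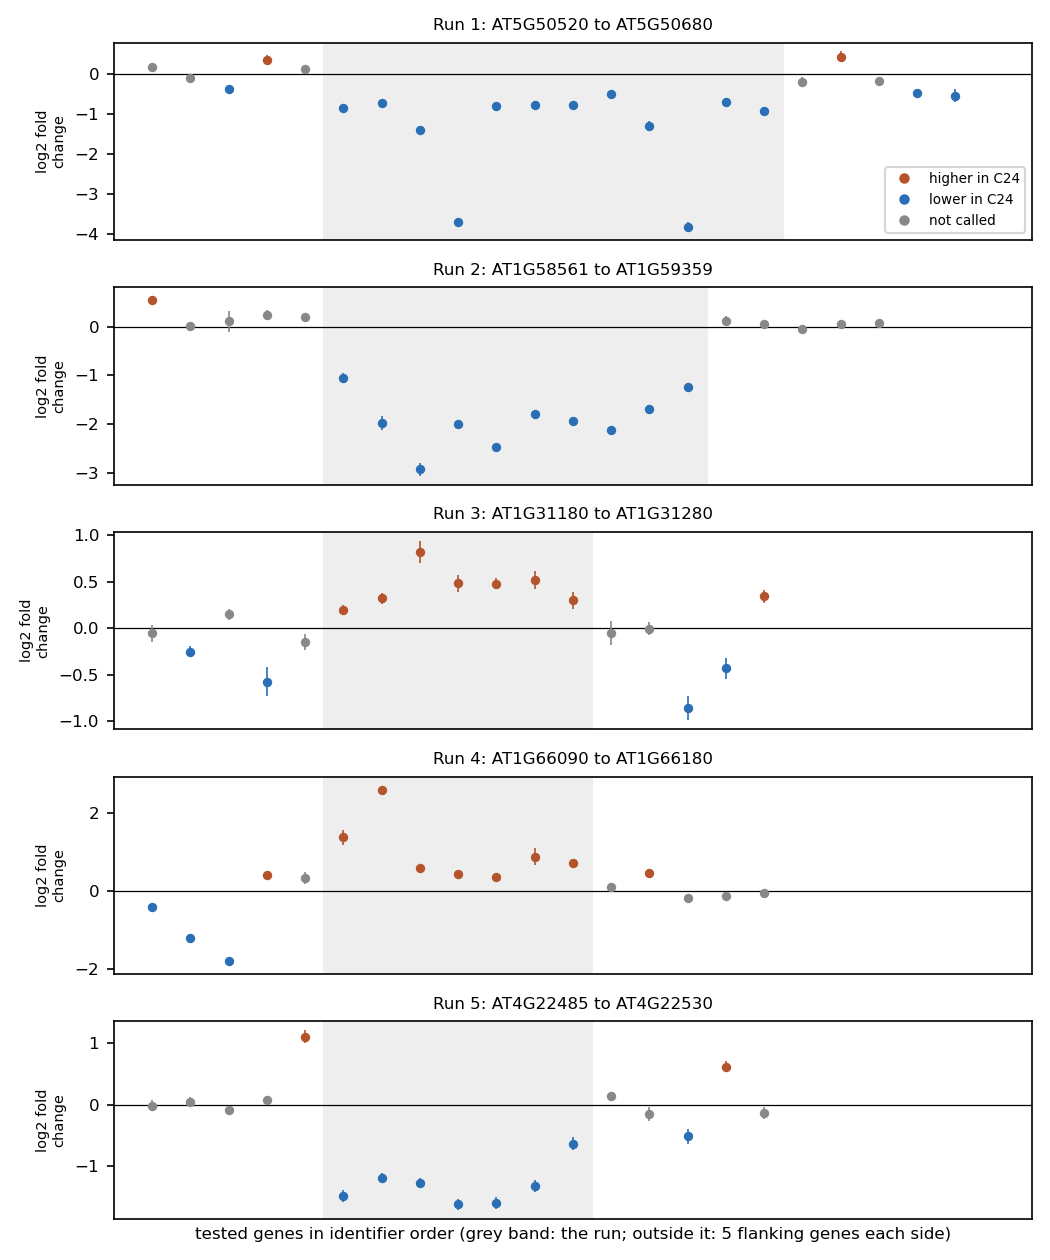
Each panel shows one of the 5 longest runs of neighbouring genes called in the same direction, as log2 fold change, C24 minus Col, with bars of 1 standard error, in gene identifier order. The grey band marks the run of 12, 10, 7, 7 and 7 genes, and 5 tested genes on each side are shown outside it. In the first panel the points near -4 are AT5G50565 and AT5G50665, listed at 0 in C24.

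By annotation, calls were more frequent in tested pseudogenes than in tested protein-coding genes. Since 1 RPKM in 3 of the 12 libraries was enough to be tested, a gene silent in 1 accession could enter through the other libraries. Of the 90 tested pseudogenes not annotated as transcribed, 21 were called at least 2-fold higher and 36 at least 2-fold lower. The part of the filter in these shares was not tested. Of these 90 pseudogenes 75.6% were called, 25 higher and 43 lower, and of 72 transcribed pseudogenes 66.7%, 28 higher and 20 lower. Of 82 genes annotated as ncRNA 64.6% were called, 20 higher and 33 lower. The share was 44.9% of 136 genes annotated as lncRNA, 28 higher and 33 lower, and 41.3% of 17383 protein-coding genes. Per chromosome the share ran from 41.1% on chromosome 1 to 43.9% on chromosome 4. Plastid genes were lower in 30 of 76 cases and higher in 1, their median log2 fold change being -0.84, and mitochondrial genes lower in 10 of 19. These transcripts are mostly not polyadenylated, and their share moved with that of ribosomal RNA given above, whose part in their lower values was not tested.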

How the data were processed

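RNA selected with oligo(dT) from shoots was sequenced in 12 libraries, 3 for each of C24, Col and their 2 reciprocal hybrids, and the submitters' processing notes name TopHat and TAIR10 with no versions. The authors deposited one RPKM value per gene and library; the unit was read from the values, and no source used here gives the counting tool or annotation release. Of 33559 identifiers, 567 that occurred on more than 1 line were left out, and 32248 matched RefSeq's TAIR10.1 annotation, which gave symbols and coordinates. Low values came out as whole reads for 57.3% to 70.8% of values within a tolerance of 0.15, too few for a test on counts, and the same steps put the depth near 18.7 to 21.7 M reads in C24 and 22.5 to 26.9 M reads in Col.

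From there, log2(RPKM + 1) was fitted with limma 3.58.1 in R 4.3.3 on all 12 libraries, with group and replicate number as terms, an intensity trend, and Benjamini-Hochberg adjustment over 17927 genes at 0.05. Fold changes are C24 minus Col on that scale and understate low genes. The labels do not say what the replicate number stands for. After the group means were taken off, 18 pairs of same-numbered libraries had correlations of 0.538 to 0.825, and 36 pairs with unlike numbers had -0.649 to 0.187, so the number was kept as a block. Deviations from a mean of 3 libraries cancel out within a group, so these ranges are not independent of each other. On simulated data with 200 changed genes among 17927, in 3 draws, the block fit for C24 against Col recovered 24.7% of 1.25-fold, 78% of 1.5-fold, 94% of 2-fold and 98.7% of 4-fold changes. The data had 7490 called genes, far more than were changed in the simulation, so these rates need not hold for this comparison. Gene copies were compared with blastn 2.17.0+.

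The members and gene lists were chosen with earlier results of these data known. Genes named were the 10 largest rises and falls among called genes with a symbol, without overlap and with at least 5 RPKM in the higher group; the 8 largest gains and losses in RPKM; up to 4 called members per list; and the 5 longest runs. Other genes named beside these were chosen after their values were seen. Alternatives changed the block, libraries, filter, pseudocount, scaling, covariate, call rule and promoter window.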

Additional observations from a re-analysis of the deposited data

How the results depend on the processing

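Without the replicate block 4071 genes passed, 1852 higher and 2219 lower in C24, and asking for a 2-fold difference in addition left 1081 genes, 575 higher and 506 lower. Leaving out 1 library, or 1 replicate number of all 4 groups, gave 5182 to 6595 genes, with 2446 to 3312 higher and 2651 to 3629 lower. The other alternatives gave 5710 genes (parental libraries only) to 7992 (no filter), within 1.5 times of the 7490 reported, and no gene called in both the reported fit and an alternative changed direction. Higher genes made up 41.5% to 53.3% of the calls over the alternatives. Of 193 named genes 191 were called. Leaving aside the fit without the block, 159 of these were called in every alternative that tested them, and 32 missed the threshold in at least 1. The filter of 5 RPKM kept 161 of the 193 named genes, and the filter on the 6 parental libraries 187, so the rest were not tested there. The ribosomal RNA share as a covariate took the median of the terpenoid list to -0.07, against 0.07 as reported, and WRKY33 to an adjusted p of 0.0726 in limma. In the 150 bases nearest the start, 36.4% of iron gene promoters and 5.7% of all held the G-box. The share called was 40.2% among genes with a mean under 5 RPKM and 50.5% among those at 100 RPKM or more. Leaving out the 4 libraries of a replicate number also moved list counts. Without replicate 1 there were 3 higher photorespiration, 3 higher brassinosteroid and 2 lower Polycomb and histone methylation genes. Without replicate 2 there were 6 lower cytokinin genes, 2 lower abscisic acid genes, and 4 higher and 1 lower terpenoid genes. The cause of these shifts was not tested.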

Other observations

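Markers of vascular and guard cells were measured beside those of other tissues. The summed level of 4 phloem markers ran from 256 to 294 RPKM in C24 libraries and from 209 to 211 in Col libraries, with SULTR2;1 higher and APL lower. Without SULTR2;1, described above among sulphur genes, the other 3 summed to 113 to 136 RPKM in C24 and 128 to 139 in Col. Over 5 xylem markers it ran from 46.9 to 58.5 RPKM in C24 and from 57.6 to 60.1 in Col, with 1 higher and 1 lower of 4 tested, and over 5 guard cell markers from 29.8 to 40.02 RPKM in C24 and from 36.7 to 41.3 in Col, with HT1 and MYB60 lower by -0.61 and -0.32 (adjusted p = 0.00351 and 0.0144 in limma) and none higher. MYB60 was not called without the block, nor was APL, which was lower by -0.195 with it (adjusted p = 0.0444 in limma). The APL call was also lost without C24 replicate 1 or 2, or any 1 Col library (adjusted p from 0.051 to 0.199 in limma).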
